A study of Mus musculus with 12 samples.

Results

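The 10 genes described here encode transcription factors of T cell activation, effector differentiation and exhaustion: Nfatc1, Nr4a2, Nr4a3, Batf, Irf4, Tox, Prdm1, Maf, Tbx21 and Eomes. They were chosen by name from a table of 24319 entries, all 10 were present, and all 10 were among the 11978 genes whose level was high enough to be tested. The values come from RNA of CD45-positive cells, that is immune cells, taken from mouse liver. There were 12 libraries in 4 groups of 3, and replicates carry the numbers 0, 1 and 2. The labels do not say whether replicates came from separate mice, so p-values here measure only the spread between these libraries, which may be technical.

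All groups were C57BL/6 mice whose livers had been transfected hydrodynamically with human c-Myc and N-ras on day 0, a rapid injection of DNA in a large volume that reaches hepatocytes. The control group received PBS on days 14, 16, 18, 20 and 22 and 200 µg of IgG on days 17, 19 and 21. In the polyIC group PBS was replaced by polyIC, which is double-stranded RNA made by synthesis, at 4 mg/kg, and IgG was kept. In the antiPDL1 group IgG was replaced by 200 µg of PD-L1 antibody, and PBS was kept. PD-L1 binds PD-1, an inhibitory receptor of T cells. The combination group received polyIC and the antibody on those days. Livers were taken on day 24 by the treatment protocol, whereas the time point label gives day 22, and CD45-positive cells were pulled out on magnetic beads by way of a PE-labelled antibody. No group lacked the oncogenes or the injections, so every comparison is between livers that carried both.

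T cell receptor signals raise calcium, and the phosphatase calcineurin then sends NFAT proteins such as NFATc1 into the nucleus. NFAT proteins act with AP-1 factors, among them BATF, which pairs with IRF4 on DNA. When the antigen persists, NFAT with little AP-1 is linked to induction of the NR4A nuclear receptors and of TOX, an HMG-box protein needed for the exhausted state of T cells. T-bet (Tbx21) and eomesodermin (Eomes) are T-box factors of effector T cells and NK cells, and Blimp-1 (Prdm1) and c-Maf (Maf) take part in terminal differentiation and in Il10 expression. Several of these genes are also used outside T cells, Maf by macrophages, Irf4 and Prdm1 by B lineage cells, and Batf and Irf4 by dendritic cells.

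A promoter from RefSeq (GRCm38.p6) was searched for 7 of the 10 genes. Tox and Maf had no entry, and Nfatc1, which also rose with the combination, was left out. The 250 bases before the start site are printed for Nr4a2, Batf, Prdm1 and Eomes, because these were the genes searched that rose with the combination. Capitals mark the motifs found when both strands were searched for the NFAT core (GGAAA), AP-1 (TGANTCA), the NR4A monomer element (AAAGGTCA), the IRF element (a pair of GAAA copies, 2 bases apart) and the T-box half-site (AGGTGTGA). Promoters are written 5′ to 3′ in the direction of transcription, so TTTCC is the NFAT core on the opposite strand.
Nr4a2: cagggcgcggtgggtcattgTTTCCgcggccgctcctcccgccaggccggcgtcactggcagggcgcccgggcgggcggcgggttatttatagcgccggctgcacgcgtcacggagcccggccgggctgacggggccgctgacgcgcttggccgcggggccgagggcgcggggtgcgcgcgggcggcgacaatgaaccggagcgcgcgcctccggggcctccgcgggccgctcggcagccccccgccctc
Batf: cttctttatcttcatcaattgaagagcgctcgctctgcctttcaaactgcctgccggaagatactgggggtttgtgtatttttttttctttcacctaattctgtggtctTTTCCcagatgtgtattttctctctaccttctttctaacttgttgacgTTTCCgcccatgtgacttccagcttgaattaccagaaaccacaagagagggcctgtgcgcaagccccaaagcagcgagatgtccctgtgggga
Prdm1: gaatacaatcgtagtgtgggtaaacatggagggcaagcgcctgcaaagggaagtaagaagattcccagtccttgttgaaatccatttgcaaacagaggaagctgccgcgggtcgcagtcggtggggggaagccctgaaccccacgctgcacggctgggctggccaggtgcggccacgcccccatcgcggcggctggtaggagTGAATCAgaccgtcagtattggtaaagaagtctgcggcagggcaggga
Eomes: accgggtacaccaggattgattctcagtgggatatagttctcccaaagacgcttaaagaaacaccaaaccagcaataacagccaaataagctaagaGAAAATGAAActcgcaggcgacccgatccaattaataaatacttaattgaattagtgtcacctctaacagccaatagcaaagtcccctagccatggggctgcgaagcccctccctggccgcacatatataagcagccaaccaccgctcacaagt
The Nr4a2 promoter (chr2:57124004-57124253, minus strand) held the NFAT core once, 230 bases before the start site. Batf (chr12:85686470-85686719, plus strand) held it at 141 and at 93 bases before the start. Prdm1 (chr10:44458749-44458998, minus strand) held an AP-1 motif at 48 bases, and Eomes (chr9:118477939-118478188, plus strand) an IRF element at 154 bases. Tbx21 held the NFAT core at 178 bases, and none of the 5 motifs was found in these windows of Nr4a3 and Irf4. Among 32851 promoters of this length, 55.6% held the NFAT core, 6.75% the AP-1 motif, 2.98% the IRF element, 1.34% the NR4A element and 1.12% the T-box half-site. A match is a description of the letters and no evidence of binding.

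Values are FPKM, fragment counts corrected for gene length and library size, so levels of different genes can be set side by side. Total FPKM per library lay between 476111 and 677535, and depth, known only in relative terms, ran from 0.472 in antiPDL1 replicate 0 to 1 in combination replicate 2. Ptprc, which encodes CD45, lay between 240 ± 29.1 FPKM in control and 449 ± 59.4 in the combination (SD, n = 3). By their mean correlation across genes, 3 libraries resembled a different group more than their own. Control replicate 2 stood at 0.922 with controls and 0.935 with polyIC, antiPDL1 replicate 0 at 0.942 with its own group and 0.961 with the combination, and antiPDL1 replicate 2 at 0.928 with its own group and 0.952 with control. Marker lists also differed between groups. The summed FPKM of 17 T cell markers (such as the Cd3 genes, Lck and Zap70) was 388 to 1105 in control, 1553 to 2201 in polyIC, 825 to 2026 in antiPDL1 and 2570 to 3363 in the combination, and 10 NK cell markers summed to 103 to 270, 457 to 833, 89.7 to 241 and 104 to 274. No marker of either list was listed at 0 in any library. In these bulk samples fewer cells of a type and less RNA per cell cannot be told apart.

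Of the 10 factors, 6 had their highest group mean with the combination and passed against control there. Against control, Tox, Nr4a2 and Eomes rose with polyIC, and Tox, Nr4a2, Eomes, Batf, Prdm1 and Nfatc1 rose with the combination. Mean Tox was 10.5-fold the control with polyIC and 14.4-fold with the combination, and mean Nr4a2 was 14.5-fold and 17.9-fold. Nr4a3, Irf4, Maf and Tbx21 passed the test in none of the comparisons with control on FPKM as deposited, though some other fits given below called Tbx21 or Maf. With the antibody alone, none of the 10 passed, and 1 of its 3 libraries carried most of the higher values.

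**Figure D1:**
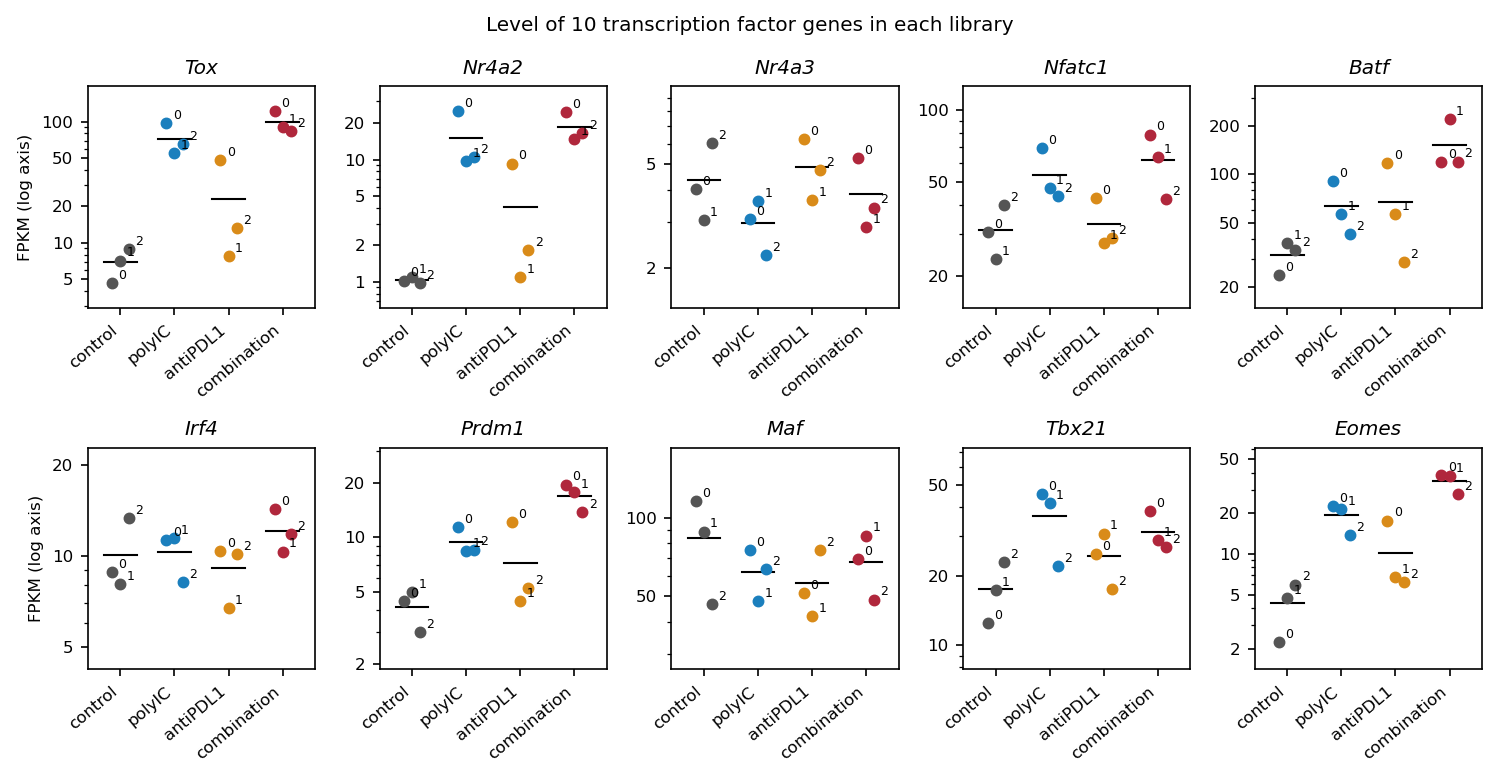
Level of each factor gene in every library, in FPKM on a log axis, by group. Points are libraries labelled with their replicate number and lines are group means of 3 libraries. Tox and Nr4a2 lie above every control in all polyIC and combination libraries, and antiPDL1 replicate 0 stands above the other antiPDL1 libraries for both.

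In control, Maf had the highest mean of the 10 genes, 83.6 ± 34.9 FPKM (SD, n = 3), followed by Batf at 31.8 ± 7.10, Nfatc1 at 31.3 ± 8.06, Tbx21 at 17.7 ± 5.32, Irf4 at 10.1 ± 2.85, Tox at 6.89 ± 2.13, Nr4a3 at 4.36 ± 1.53, Eomes at 4.33 ± 1.89, Prdm1 at 4.15 ± 1.03 and Nr4a2 at 1.04 ± 0.0607. Neighbours in this order overlapped, except that Maf lay above Batf, Nfatc1 above Tbx21 and Prdm1 above Nr4a2 in every library. In the combination the order was Batf at 153 ± 58.6, Tox at 99.2 ± 21.2, Maf at 67.8 ± 18.4, Nfatc1 at 61.5 ± 18.4, Eomes at 34.5 ± 6.00, Tbx21 at 31.3 ± 6.27, Nr4a2 at 18.6 ± 5.17, Prdm1 at 17.0 ± 2.98, Irf4 at 12.2 ± 2.01 and Nr4a3 at 3.85 ± 1.25. There, only Nfatc1 and Eomes, Tbx21 and Nr4a2, and Irf4 and Nr4a3 were separated neighbours. Tox went from rank 6 to rank 2 of the 10, and its mean level from percentile 35.5 to percentile 92.6 among the tested genes, while Nr4a2 went from percentile 3.07 to 63.4. With polyIC, Tox had the highest mean, 72.6 ± 21.8 FPKM, ahead of Batf at 63.5 ± 24.9 and Maf at 62.1 ± 13.7, and these 3 overlapped.

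Nfatc1, the calcium-dependent factor, was measured at 30.6, 23.6 and 39.7 FPKM in control, at 69.2, 46.8 and 43.6 with polyIC, at 42.5, 27.6 and 28.9 with the antibody and at 78.7, 63.5 and 42.2 with the combination. All polyIC and combination libraries lay above the controls, antiPDL1 replicate 0 lay just above them, and the other antiPDL1 libraries lay among them. On the log2(FPKM + 1) scale, which understates changes of low genes, Nfatc1 rose by 0.94 with the combination (SE 0.28, adjusted p = 0.0285 in limma) and differed by 0.75 with polyIC (adjusted p = 0.155). The combination call was the least stable of the 6: adjusted p was 0.0816 without control replicate 0, 0.10 without control replicate 1, 0.0926 without combination replicate 0 and 0.0923 without combination replicate 1.

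Nr4a2, an orphan nuclear receptor induced by antigen receptor signals, was at 1.03, 1.10 and 0.981 FPKM in control and at 24.9, 9.79 and 10.5 with polyIC. With the antibody it was at 9.27, 1.10 and 1.83, and with the combination at 24.4, 14.7 and 16.5. Every polyIC and combination library lay above every control, whereas antiPDL1 replicate 1 lay within the control range and replicate 0 near the lower polyIC libraries. Nr4a2 rose by 2.86 (SE 0.51, adjusted p = 0.0150) with polyIC and by 3.23 (SE 0.51, adjusted p = 0.00257) with the combination in limma. The polyIC call was lost without control replicate 0 (adjusted p = 0.0620), control replicate 1 (0.0671) or polyIC replicate 0 (0.0843), with log2 differences from 2.45 to 2.88.

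Nr4a3, another receptor of that family, stayed low. It was at 4.01, 3.05 and 6.04 FPKM in control, 3.08, 3.62 and 2.25 with polyIC, 6.25, 3.64 and 4.76 with the antibody and 5.26, 2.88 and 3.41 with the combination. All groups overlapped the controls. Its log2 difference was -0.41 (95% interval -0.97 to 0.16) with polyIC and -0.14 (-0.70 to 0.43) with the combination, so its interval and that of Nr4a2 (2.11 to 4.35 with the combination) did not meet. That pair of genes was not compared in a test of its own.

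Batf, the AP-1 partner of IRF4, was at 23.8, 37.4 and 34.1 FPKM in control. It was at 91.1, 56.8 and 42.5 with polyIC, at 118, 56.7 and 28.8 with the antibody and at 119, 221 and 120 with the combination. Combination libraries lay above all other libraries, and polyIC libraries lay above all controls. The antibody group spanned from the control range to just under the combination range, with 118.3 FPKM in antiPDL1 replicate 0 and 118.9 in combination replicate 0. Batf rose by 2.20 with the combination (SE 0.46, adjusted p = 0.00667 in limma), a 4.82-fold difference in mean FPKM. With polyIC the difference was 0.93 (adjusted p = 0.256). Irf4, which BATF joins on composite DNA sites, was at 8.87, 8.07 and 13.4 FPKM in control and 14.3, 10.4 and 11.8 with the combination. With polyIC it was at 11.3, 11.4 and 8.22, and with the antibody at 10.4, 6.74 and 10.2. Its groups overlapped throughout, and its difference with the combination was 0.26 (95% interval -0.23 to 0.76, adjusted p = 0.388).

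Tox was at 4.64, 7.14 and 8.88 FPKM in control and at 97.1, 55.2 and 65.6 with polyIC. With the antibody it was at 48.0, 7.76 and 13.3, and with the combination at 123, 90.6 and 83.7. The lowest polyIC library lay far above the highest control, polyIC and combination overlapped, and antiPDL1 replicate 1 lay within the control range. Tox rose by 3.22 with polyIC (SE 0.50, adjusted p = 0.0115) and by 3.68 with the combination (SE 0.50, adjusted p = 0.00169) in limma, at percentiles 99.8 and 99.9 of the log2 differences of all tested genes. The polyIC call was lost without control replicate 1 (adjusted p = 0.0534) or polyIC replicate 0 (adjusted p = 0.0643). The combination call held without any 1 of the 12 libraries.

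Of the T-box genes, Eomes was at 2.26, 4.77 and 5.97 FPKM in control and at 22.7, 21.5 and 13.9 with polyIC. It was at 17.7, 6.73 and 6.22 with the antibody and at 38.3, 37.7 and 27.6 with the combination. Each treated group lay above every control, and the combination lay above all other libraries. Eomes rose by 1.97 with polyIC (SE 0.38, adjusted p = 0.0197) and by 2.79 with the combination (SE 0.38, adjusted p = 0.00165). The polyIC call was lost without control replicate 0 (adjusted p = 0.0861), control replicate 1 (0.0712), polyIC replicate 0 (0.105) or polyIC replicate 1 (0.0694). Tbx21, the related T-bet gene, was at 12.5, 17.4 and 23.2 FPKM in control, 45.7, 41.8 and 22.2 with polyIC, 25.0, 30.7 and 17.5 with the antibody and 38.5, 28.7 and 26.8 with the combination. Combination libraries lay above the controls, whereas polyIC replicate 2 and antiPDL1 replicate 2 lay within the control range. Its differences were 0.98 with polyIC (adjusted p = 0.0973) and 0.81 with the combination (adjusted p = 0.0667) in limma, and without control replicate 2 they became 1.19 (0.0349) and 1.02 (0.0342). The combination difference also passed without polyIC replicate 2 (adjusted p = 0.0407) or antiPDL1 replicate 2 (0.0474). Those fits called 26.5% and 37.3% of all tested genes. In mean FPKM the combination was 0.857-fold the polyIC level for Tbx21 and 1.78-fold for Eomes, and neither difference passed (adjusted p = 0.815 and 0.376).

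Prdm1, which encodes the repressor Blimp-1, was at 4.47, 4.98 and 2.99 FPKM in control and at 11.3, 8.37 and 8.55 with polyIC. It was at 12.1, 4.43 and 5.23 with the antibody and at 19.5, 17.7 and 13.7 with the combination. The combination lay above all other libraries and polyIC above all controls. Prdm1 rose by 1.81 with the combination (SE 0.30, adjusted p = 0.00303 in limma), and its difference with polyIC was 1.03 (adjusted p = 0.0830). The polyIC difference passed without antiPDL1 replicate 0 (adjusted p = 0.0188), in a fit that called 5.14% of all tested genes. It passed in no other fit that left out a single library. Plasma cells, of the B lineage, also use Prdm1. Of their 4 markers tested 2 fell with the combination and none rose, while 1952 of 11978 tested genes fell. The part of plasma cells in the Prdm1 values was not tested. Maf was at 116, 88.5 and 46.6 FPKM in control, 75.1, 47.8 and 63.4 with polyIC, 51.4, 42.1 and 75.4 with the antibody and 69.3, 85.4 and 48.6 with the combination. All groups overlapped, and the difference with the combination was -0.24 (95% interval -0.99 to 0.51, adjusted p = 0.618). Of 10 tested markers of Kupffer cells, the resident macrophages of the liver, 8 fell with the combination, beside the same 1952 of 11978 tested genes. Their summed FPKM was 4239 to 18605 in control and 1682 to 2971 with the combination. The part of Kupffer cells in the Maf values was not tested.

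**Figure D2:**
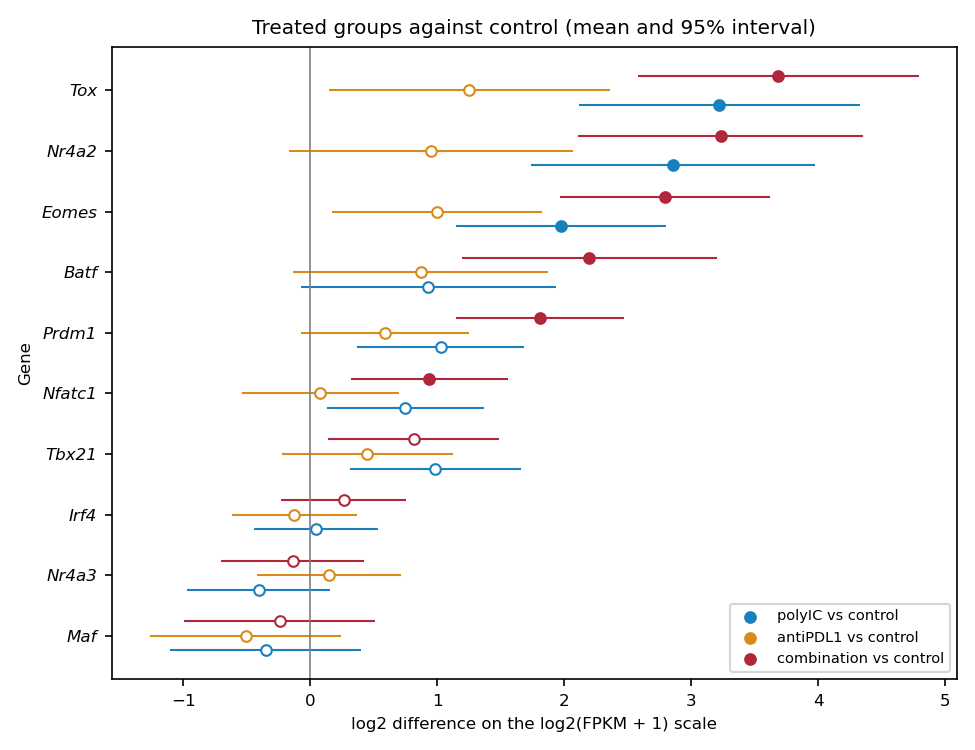
Difference of each treated group from control on the log2(FPKM + 1) scale, by gene, with 95% intervals from limma over 12 libraries. Filled points have an adjusted p under 0.05: 3 genes for polyIC, 6 for the combination and none for the antibody alone.

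The comparison of polyIC with control asks what the double-stranded RNA did without the antibody. Of the 10 factors 3 rose and 0 fell (limma, Benjamini-Hochberg adjusted p under 0.05 over 11978 genes), against 2.46% of all tested genes that rose. Higher values without overlap were found for 6 of the 10 (Tox, Nr4a2, Nfatc1, Batf, Prdm1 and Eomes), against 16.2% of all tested genes. The median log2 difference of the 10 was 0.96, and that of all tested genes -0.01. The number called depended on single libraries: it was 0 without control replicate 1 or polyIC replicate 0, 1 without control replicate 0, 2 without polyIC replicate 1, and 4 without control replicate 2 or antiPDL1 replicate 0. The share of all tested genes called higher moved with it, from 0.235% without polyIC replicate 0 to 5.75% without control replicate 2.

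The comparison of antiPDL1 with control asks what the antibody did without polyIC. In limma 0 of the 10 passed, 2 had an unadjusted p under 0.05, and 0.00835% of all tested genes rose. Those 2 were Tox, with a log2 difference of 1.25 (95% interval 0.15 to 2.36, adjusted p = 0.264), and Eomes, with 1.00 (0.17 to 1.83, adjusted p = 0.242). Only Eomes was without overlap, 1 of 10 against 4.61% of all tested genes. The antiPDL1 libraries were far apart: replicate 0 stood at 4.55 times the mean of the other two for Tox, 6.33 times for Nr4a2, 2.76 times for Batf, 2.73 times for Eomes and 2.51 times for Prdm1, but at 1.04 times for Tbx21 and 0.875 times for Maf. The same library had a T cell marker sum of 2026 FPKM, against 999 in replicate 1 and 825 in replicate 2. When antiPDL1 replicate 2 was left out, 1 gene passed, Batf at 1.36 (adjusted p = 0.0427), in a fit that called 17.5% of all tested genes and 12% as higher. When control replicate 2 and antiPDL1 replicate 2 were both left out, a choice made after seeing the data, Eomes (1.47, adjusted p = 0.026) and Batf (1.43, 0.0397) passed as higher and Maf (-1.11, 0.0183) as lower. That fit called 27.8% of all tested genes, so 3 of 10 is near the share of all genes.

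The comparison of the combination with control asks what both agents did together. Of the 10 factors 6 rose and 0 fell, against 13.1% of all tested genes that rose, and 7 of 10 were higher without overlap, against 25.6%. The median log2 difference was 1.37, beside 0.05 for all tested genes. Between 5 and 7 factors were called when any 1 library was left out, in fits that called 5.27% to 19.9% of all tested genes as higher. All 3 comparisons with control share the same control libraries, so their values are not independent of each other.

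What the antibody added to polyIC was asked by comparing the combination with polyIC. In limma 0 of the 10 passed, against 0.159% of all tested genes that were higher, and 2 had an unadjusted p under 0.05. Batf (log2 difference 1.27, 95% interval 0.26 to 2.27, adjusted p = 0.228), Prdm1 (0.79, 0.12 to 1.45, 0.258) and Eomes (0.82, -0.01 to 1.65, 0.376) were higher without overlap, 3 of 10 against 13.3% of all tested genes. Tox and Nr4a2 overlapped, at 0.46 (95% interval -0.64 to 1.57) and 0.37 (-0.75 to 1.5), intervals that leave room for a difference in either direction. When only these 6 libraries entered the fit, Batf, Prdm1 and Eomes passed as higher (adjusted p = 0.0271, 0.0211 and 0.0353), and 3.07% of all tested genes did.

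What polyIC added to the antibody was asked by comparing the combination with antiPDL1. In limma 0 of the 10 passed, against 0.1% of all tested genes that were higher, although 6 had an unadjusted p under 0.05. Tox (log2 difference 2.43, adjusted p = 0.0792), Nr4a2 (2.28, 0.0928), Eomes (1.79, 0.0837), Batf (1.32, 0.231) and Prdm1 (1.22, 0.126) were higher without overlap, 5 of 10 against 8.29% of all tested genes. Whether any factor passed in limma depended on which libraries entered, most of all on antiPDL1 replicate 0. Without that library Tox, Nr4a2, Eomes, Prdm1 and Batf all passed, at 3.14 (adjusted p = 0.00171), 2.97 (0.00259), 2.23 (0.00633), 1.61 (0.00585) and 1.83 (0.0406), while 1.76% of all tested genes were called higher. Without control replicate 2, Tox (adjusted p = 0.0436) and Eomes (0.0379) passed, beside 0.872% of all tested genes.

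An interaction term tested whether polyIC acted differently in the presence of the antibody. In limma 0 of the 10 passed, none had an unadjusted p under 0.05, and 0.0167% of all tested genes passed in either direction. The terms ran from -0.79 for Tox (95% interval -2.35 to 0.78) to 0.62 for Maf (-0.44 to 1.68), all with adjusted p = 0.999. These intervals are wide, and the test does not show that the effects were equal.

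T cell markers differed between the groups as well, with 5 of 17 higher with polyIC, 0 with the antibody and 16 with the combination. Of all tested genes 2.46%, 0.00835% and 13.1% were higher there. The factors were therefore also measured relative to the mean of the 17 markers on the log2(FPKM + 1) scale in each library, which lowers every gene by 1.30 against control with polyIC, 0.81 with the antibody and 1.90 with the combination. Tox relative to the markers was at -1.61, -1.57 and -2.12 in control, at 0.34, -0.12 and 0.25 with polyIC, at -0.57, -2.09 and -1.31 with the antibody and at 0.36, -0.28 and -0.0028 with the combination. The polyIC and combination libraries lay above all controls on this scale too, as did antiPDL1 replicates 0 and 2, whereas antiPDL1 replicate 1 lay just inside the control range. Nr4a2 was at -3.09, -3.52 and -4.43 in control, -1.58, -2.50 and -2.29 with polyIC and -1.93, -2.83 and -2.28 with the combination, again without overlap.

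In limma on these relative levels, Tox was higher by 1.92 with polyIC (unadjusted p = 9.63e-05, adjusted p = 0.00871) and by 1.79 with the combination (0.000212, adjusted p = 0.000500), calls that held without any 1 of the 12 libraries. Nr4a2 was higher by 1.56 (unadjusted p = 0.00295, adjusted p = 0.00963) and 1.34 (0.00891, adjusted p = 0.0101), and lost the first call without control replicate 0 (adjusted p = 0.0524) or polyIC replicate 0 (0.0531) and the other without combination replicate 0 (0.0552). Eomes was higher by 0.90 with the combination (adjusted p = 0.0225), which was lost without any 1 combination library (adjusted p = 0.0501 to 0.0889). Its difference of 0.67 with polyIC did not pass (adjusted p = 0.0825). Batf (0.30, adjusted p = 0.457) and Prdm1 (-0.08, adjusted p = 0.849) did not differ from the markers beyond their spread with the combination. So 2 factors with polyIC and 3 with the combination were higher, against 0.384% and 0.317% of all tested genes.

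Relative to the T cell markers, Nr4a3 (-1.71), Maf (-1.65) and Irf4 (-1.25) were lower with polyIC. With the combination Maf (-2.14), Nr4a3 (-2.03), Irf4 (-1.63), Tbx21 (-1.08) and Nfatc1 (-0.96) were lower, and Nfatc1 thus changed sign against its value as deposited. These lower calls are those of most genes, since 84% and 93.5% of all tested genes were lower on this scale. Between the combination and antiPDL1, Tox (1.35, adjusted p = 0.0401) and Nr4a2 (1.20, adjusted p = 0.0448) were higher, against 0.15% of all tested genes. Neither call held without antiPDL1 replicate 1 or 2 or any 1 combination library, and Nr4a2 also missed the threshold without control replicate 1 or any 1 polyIC library.

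**Figure D3:**
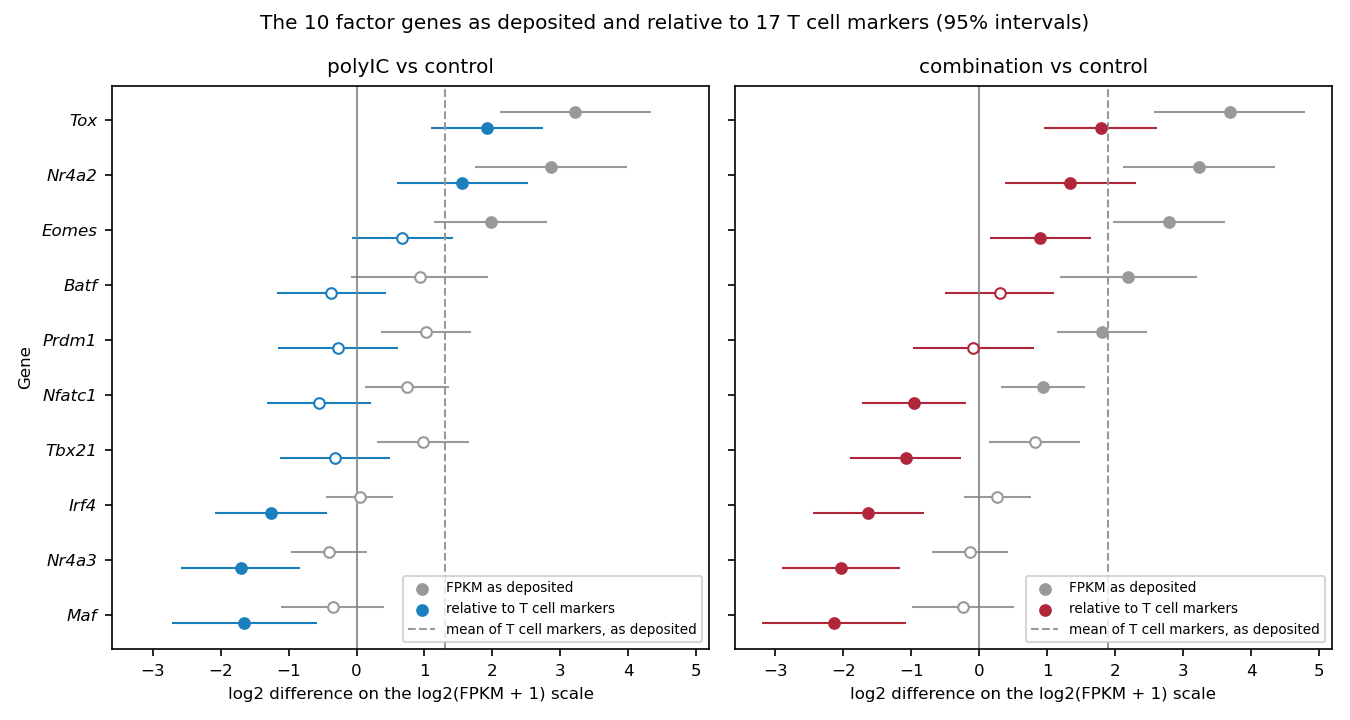
Differences from control with polyIC (left) and with the combination (right) on the log2(FPKM + 1) scale, as deposited (grey) and relative to the mean of 17 T cell markers (coloured), with 95% intervals; filled points have an adjusted p under 0.05. The dashed line is the mean difference of the markers themselves, and Tox and Nr4a2 lie to the right of 0 on both scales in both panels.

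NK cell markers moved differently from the T cell markers: 6 of 10 rose with polyIC and 0 with the combination. Of all tested genes 2.46% and 13.1% rose there. With the combination the mean log2 difference of the NK markers from control was 0.09. NK cells also use Eomes and Tbx21. Relative to the NK markers, Eomes differed by -0.07 with polyIC (adjusted p = 0.910) and was higher by 2.70 with the combination (adjusted p = 0.00154). Tbx21 differed by -1.06 (adjusted p = 0.104) and 0.72 (adjusted p = 0.982). The NK marker sums of the combination libraries were 104, 143 and 274 FPKM, and those of the controls 103 to 270. The part of NK cells in the Eomes and Tbx21 values as deposited was not tested further. On this scale Tox was higher by 3.59 with the combination (adjusted p = 5.45e-06 in limma), and its difference of 1.17 with polyIC did not pass (adjusted p = 0.0731). Nr4a2 was higher by 3.14 with the combination (adjusted p = 0.000115) and did not pass with polyIC (0.81, adjusted p = 0.210). The polyIC calls of Tox, Nr4a2 and Eomes were thus lost. With the combination Batf passed (2.11, adjusted p = 0.0329), but Prdm1 (1.72, adjusted p = 0.113) and Nfatc1 (0.85, adjusted p = 0.865) did not. Relative to the NK markers, 1% of all tested genes were called higher with the combination and 0.15% with polyIC.

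The coreceptor genes, listed apart from the T cell markers, did not all move alike. Cd8a rose from 21.2 ± 11.6 FPKM in control to 166 ± 45.8 with polyIC and 184 ± 16.5 with the combination, and Cd8b1 rose with it in both (log2 differences 2.22 and 2.43). Cd4 was at 43.4 ± 17.9 in control and 39.0 ± 1.80 with polyIC, and rose to 99.6 ± 23.4 with the combination (log2 difference 1.24, adjusted p = 0.00769). It was also higher with the combination than with polyIC (adjusted p = 0.0443 in limma). Other immune and liver cell markers fell with the combination: 12 of 12 B cell, 7 of 10 conventional dendritic cell, 6 of 7 plasmacytoid dendritic cell, 11 of 12 sinusoidal endothelial and 10 of 11 hepatocyte markers. Of all tested genes, 1952 of 11978 fell there. Neutrophil markers rose in 6 of 10 with polyIC and 4 of 10 with the combination, against 2.46% and 13.1% of all tested genes. The part of these shifts in the levels of the 10 factors was not tested beyond the scaling to T cell and NK cell markers.

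Of 15 listed close relatives of the 10 factors 13 were tested, 0 passed with polyIC or with the antibody, and 3 rose with the combination (13.1% of all tested genes rose there), where the median log2 difference was 0.26. Tox2, another gene of the TOX family, rose from 0.707 ± 0.208 to 14.4 ± 6.57 FPKM (log2 difference 3.09, adjusted p = 0.00285). Batf2, an interferon-inducible relative of Batf, rose from 7.11 ± 3.24 to 23.8 ± 2.62 FPKM (1.71, adjusted p = 0.0253), and the ubiquitous Tox4 rose by 0.40 (adjusted p = 0.0417). Nr4a1, the third NR4A receptor, was at 29.2 ± 8.89 FPKM in control and 36.4 ± 6.63 with the combination (adjusted p = 0.400). Nfatc2 was at 7.10 ± 2.34 and 9.44 ± 3.99 FPKM (adjusted p = 0.365).

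Genes of T cell receptor signalling ran from the adaptor Lcp2 to the calcineurin subunits and NF-κB genes, and the share that passed lay near that of all tested genes, which was 3.63% with polyIC and 29.4% with the combination. With polyIC 1 of 16 rose, Ppp3cc, a catalytic subunit of calcineurin (log2 difference 0.95, adjusted p = 0.0330 in limma). With the combination 3 rose and 1 fell, among them Prkcq, the T cell kinase PKC-theta (0.97, adjusted p = 0.00529), and the calcineurin subunits Ppp3cb (0.58) and Ppp3ca (-0.59). The list's median was 0.17 with the combination. Of 12 immediate early genes, which also respond to cell isolation, 0 passed with polyIC, and with the combination Egr1 rose (0.81) and Fosb fell by 0.83.

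Among 16 other activation and effector factors, 3 rose with polyIC and 7 with the combination, and none fell. Of all tested genes, 2.46% rose with polyIC and 13.1% with the combination. Ikzf2, which encodes Helios, was at 1.93 ± 0.878 FPKM in control, 7.18 ± 2.01 with polyIC and 10.7 ± 0.954 with the combination (adjusted p = 0.0196 and 0.00175). Nfil3 rose by 1.49 and 1.89, Ikzf3 by 1.48 with polyIC, and Hif1a, the oxygen-regulated factor, by 0.91 with the combination. Of 11 factors of naive and stem-like T cells, 0 passed with polyIC and 5 fell with the combination, where 1952 of 11978 tested genes fell. Bach2 fell by 1.47, Klf2 by 1.00 and Klf3 by 0.71, and Bach2 and Klf2 are B cell genes as well. Tcf7, which encodes TCF-1, was at 46.2 ± 25.8 FPKM in control and 32.9 ± 6.85 with the combination (adjusted p = 0.408).

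Receptors and products of activated and exhausted T cells, among them known targets of these factors, were counted as well. Of 10 inhibitory and activation receptors, 5 rose with polyIC and 8 with the combination, 0 with the antibody. The shares of all tested genes that rose were 2.46%, 13.1% and 0.00835%. Pdcd1, which encodes PD-1 and is a target of NFATc1, had a mean of 5.35 ± 2.68 FPKM in control, 122 ± 65.6 with polyIC and 219 ± 41.6 with the combination. Ctla4 (log2 difference 4.64) and Tigit (4.47) rose with the combination, and Cd244 (1.75) and Cd160 (1.83) with polyIC. Of 12 effector products 6 rose with polyIC and 11 with the combination, against the same 2.46% and 13.1% of all tested genes. The combination also exceeded polyIC for 3 of these products, Il21 (2.60, adjusted p = 0.0290), Ifng (1.96, 0.0374) and Il10 (2.64, 0.0374), a comparison in which none of the 10 factors passed. In that comparison 0.159% of all tested genes were higher.

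**Figure D4:**
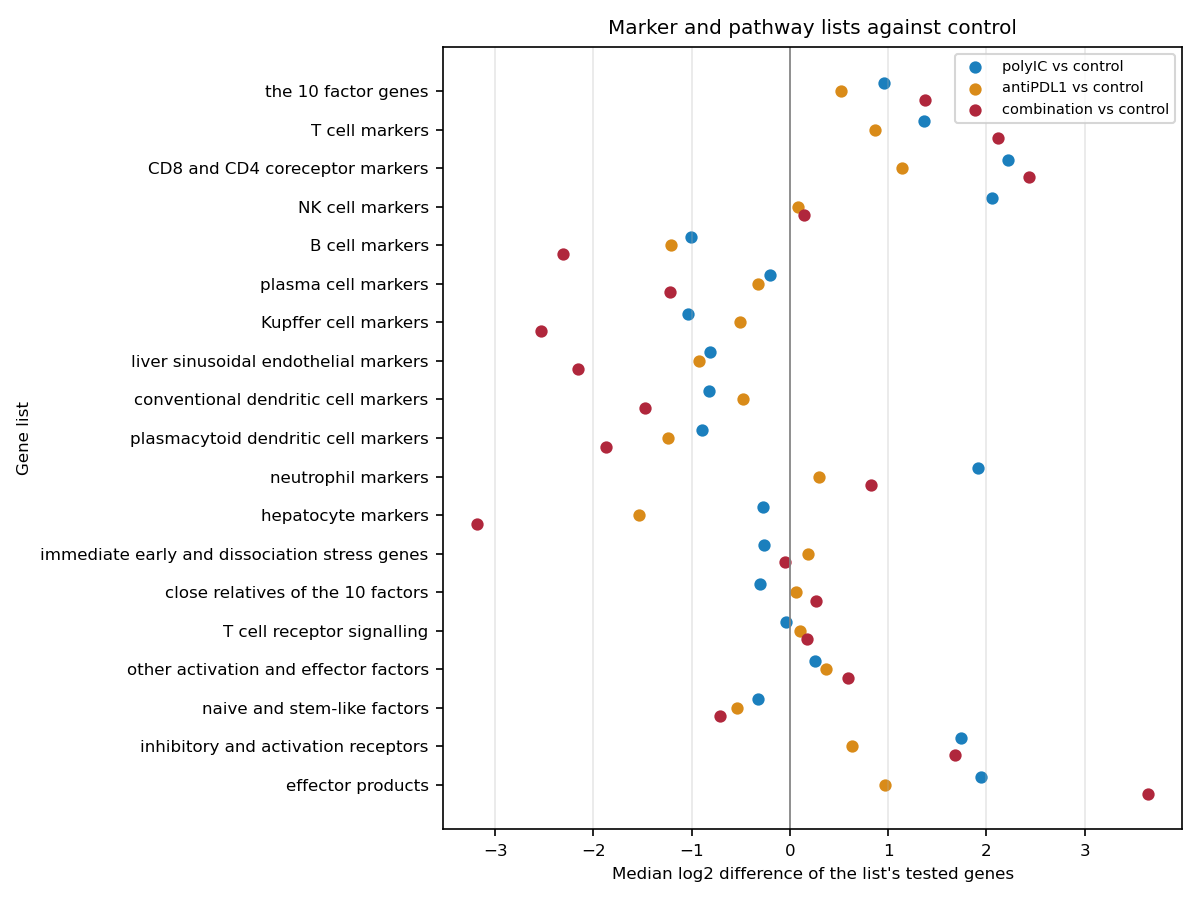
Median log2 difference from control of the tested genes of each list, on the log2(FPKM + 1) scale, for polyIC, antiPDL1 and the combination. The 10 factors lie at 0.96, 0.52 and 1.37, between the T cell markers and their own close relatives.

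Across the 12 libraries the genes closest in pattern to each factor were found by Pearson's r of log2(FPKM + 1), given here as a description, since the libraries share groups and T cell content. For Tox they were Tigit (r = 0.989), Ccl5 (0.988) and Sdcbp2 (0.984), and r of the deviations from group means stayed at 0.978 for Tigit. Nr4a2 lay closest to Faxc (0.987), Ildr1 (0.973) and Sh2d2a (0.972). For Eomes they were Izumo1r (0.987), Baiap3 (0.985) and Nkg7 (0.983), and for Prdm1 Rgs16 (0.985), Tox2 (0.983) and Syngr3 (0.980). Batf lay closest to Armt1 (0.980), Dnajc9 (0.974) and Nap1l4 (0.973), Nfatc1 to Hdac7 (0.974), Plekhg2 (0.958) and Cdc25b (0.957), and Tbx21 to Lta4h (0.948), Sytl1 (0.942) and H2-Q8 (0.931). Maf lay closest to Cd38 (0.923), Gnpda1 (0.871) and Eogt (0.865). The closest genes to Irf4 (Prkca, 0.864) and Nr4a3 (Pvrl1, 0.829) were less close than those of the other factors.

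Among the factors themselves, Tox and Nr4a2 were closest, with r = 0.986 over the 12 libraries and 0.922 for the deviations from group means. Tox and Eomes had r = 0.962 (0.828 for the deviations), and Tox and Prdm1 0.918 (0.798). Irf4 and Nr4a3 were related mainly within groups, with r = 0.497 over the libraries and 0.935 for the deviations. Maf was not close to any other factor, with r from -0.484 with Tbx21 to 0.0407 with Prdm1.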

How the data were processed

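The authors deposited 1 table with an FPKM value for each gene in each library, and the submitters' processing notes name Cuffdiff and the mm9 build. The unit was read from the values, since the table does not name it. Not given in the sources used here are the version of Cuffdiff, the aligner, the annotation and the scaling. Libraries came from a stranded mRNA kit per the labels' protocols. Of 24319 entries 23525 matched current symbols and 684 older ones, 5460 were 0 in every library, and per-sample columns were mapped by name.

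A gene was tested where 3 or more of 12 libraries reached 1 FPKM, which left 11978. Another 22, listed at 0 throughout a group while another group was at 5 FPKM or more, were read as failed estimates and left out. Differences were tested with limma 3.58.1 (limma-trend, two-sided) in R 4.3.3. A single model of log2(FPKM + 1) held all libraries and a mean per group, and calls needed p under 0.05 after Benjamini-Hochberg adjustment over all tested genes. An exact permutation test of 3 against 3 libraries cannot go below 0.1 and was not used. Values relative to T cell or NK cell markers subtract the markers' mean log2 level in each library. On simulated data with 11978 genes for polyIC against control, 52%, 92%, 98% and 98% of genes changed by log2 1, 2, 3 and 4 were recovered. The changed genes were drawn only from those above about 5 FPKM in control, so these percentages do not cover Nr4a2, Nr4a3, Prdm1 and Eomes. Noise was drawn separately for each gene, so shifts shared by all genes of a library were not simulated. Relative depth came from low values of 3594 genes (57 of 66 library pairs), with group means of 0.763, 0.548, 0.597 and 0.804 for control, polyIC, antiPDL1 and combination.

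The 10 genes and the gene lists were chosen with earlier results of these data known. From each list, up to 3 genes with the smallest adjusted p among those that passed were named, and for each factor the 3 most correlated tested genes. Ptprc, Nr4a1, Nfatc2 and Tcf7 were named after their values were seen. Promoters came from RefSeq (GRCm38.p6) and motifs from an exact search. Python 3.11.15, numpy 2.4.6, pandas 2.3.3, scipy 1.17.1 and matplotlib 3.10.9 were used.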

Additional observations from a re-analysis of the deposited data

How the results depend on the processing

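Settings of the filter, the pseudocount and the scale moved few calls: with a pseudocount of 0.1, no filter, a mean of at least 5 FPKM, the genes listed at 0 kept or median-of-ratios rescaling, the number of factors called stayed at 3 for polyIC, 0 for the antibody and 6 for the combination (7 with median-of-ratios). The members' log2 differences kept their direction and their side of the threshold in 601 of 704 values outside the fits that left out a single library, and in 664 of 720 values within them. Values that changed direction follow, as log2 differences, with the cause not tested unless the setting's construction shows it.

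Array quality weights called 6 factors with polyIC, 1 with the antibody, 3 in the combination against polyIC and 3 in the combination against antiPDL1, while also calling 28.7%, 21.7%, 30.6% and 6.86% of all tested genes in these comparisons, against 3.63%, 0.267%, 1.24% and 0.125% without weights. They turned Irf4 with the antibody (0.013), Nr4a2 in the combination against polyIC (-0.044) and the interactions of Nr4a3 (-0.40), Nfatc1 (-0.23) and Irf4 (-0.0067). Quantile normalization turned Nfatc1 with the antibody (-0.012), Nr4a3 with the combination (0.10) and Maf in the combination against polyIC (-0.040). It also called Prdm1 with polyIC (adjusted p = 0.0348 in limma), beside 6.63% of all tested genes. A fit of only the groups compared called 3 factors in the combination against polyIC, and 11.5% of all tested genes. It also called Prdm1 with polyIC (adjusted p = 0.0382 in limma) and Tbx21 with the combination against control (0.0442). Of all tested genes 4.52% and 27.5% were called there.

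Levels relative to T cell markers called 5 factors with polyIC, 3 of them lower, and 3 in the combination against antiPDL1. They also called 84.4% and 57.1% of all tested genes in these comparisons. By construction, a rise of the markers lowers every gene. This turned Nfatc1 (-0.55), Batf (-0.37), Irf4 (-1.25), Prdm1 (-0.27) and Tbx21 (-0.32) with polyIC, and Nr4a3 (-0.67), Nfatc1 (-0.73), Prdm1 (-0.22) and Tbx21 (-0.36) with the antibody. With the combination it turned Nfatc1 (-0.96), Irf4 (-1.63), Prdm1 (-0.085) and Tbx21 (-1.08). Against polyIC the combination turned for Tox (-0.13), Nr4a2 (-0.22), Nr4a3 (-0.33), Nfatc1 (-0.41), Irf4 (-0.38) and Maf (-0.49), and against antiPDL1 for Nfatc1 (-0.22), Irf4 (-0.69), Maf (-0.81) and Tbx21 (-0.72). The interaction of Eomes became 0.036.

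Levels relative to NK cell markers turned Nfatc1 (-1.30), Batf (-1.12), Irf4 (-2.00), Prdm1 (-1.02), Tbx21 (-1.06) and Eomes (-0.073) with polyIC and Tbx21 in the combination against polyIC (1.79). They also turned the interactions of Tox (1.24), Nr4a2 (1.45), Tbx21 (1.41) and Eomes (1.85). On this scale 10 factors were higher in the combination than with polyIC, as were 91.3% of all tested genes. In the combination 1 was higher than with antiPDL1, beside 0.25% of all tested genes. Of the interactions 6 passed, as did those of 65.6% of all tested genes. The calls of Tox, Nr4a2 and Eomes with polyIC and of Prdm1 and Nfatc1 with the combination were lost.

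Without control replicate 2 and antiPDL1 replicate 2, a choice made after seeing the data, 5 factors passed with polyIC and 3 with the antibody, and 23.7% and 27.8% of all tested genes passed. Nr4a3 with the combination (0.077) and the interactions of Nr4a3 (-0.10), Nfatc1 (-0.15) and Batf (-0.16) turned.

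With any 1 library left out, the number called ran from 0 to 4 with polyIC, 0 to 1 with the antibody and 0 to 5 in the combination against antiPDL1. The share of all tested genes called ran from 0.327% to 15.5%, 0% to 17.5% and 0% to 2.77% there. Log2 differences that turned in some of these fits ran from -0.086 to 0.25 for Irf4 with polyIC, and with the antibody from -0.037 to 0.36 for Nr4a3, -0.11 to 0.26 for Nfatc1 and -0.26 to 0.072 for Irf4. With the combination they ran from -0.34 to 0.077 for Nr4a3 and -0.61 to 0.039 for Maf. In the combination against polyIC they ran from -0.0082 to 0.43 for Nfatc1, -0.072 to 0.33 for Maf and -0.48 to 0.020 for Tbx21. Interactions ran from -1.03 to 0.12 for Nr4a2, -0.093 to 0.31 for Nr4a3, -0.088 to 0.35 for Nfatc1, -0.10 to 0.90 for Batf, -0.048 to 0.59 for Prdm1 and -0.42 to 0.26 for Eomes.

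No pairing by replicate number was seen on average: deviations from group means correlated at 0.0192 for the same number and -0.00986 for different numbers. Deviations cancel out within a group, so the second average largely follows from the first. Single pairs of the same number ran from -0.29 to 0.32, so this check cannot decide whether some libraries were paired. With a replicate block 4 factors were called with polyIC, Prdm1 added (adjusted p = 0.0494), and 0, 6, 0, 0 and 0 in the other comparisons. That fit called 3.57% of all tested genes with polyIC and 32.8% with the combination against control. Depth is known only in relative terms, so no counting error could be given; the pseudocount weighs most on Nr4a2, which is near 1 FPKM in control.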
